A study of Mus musculus with 8 samples.

Results

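Complex I of the mitochondrial respiratory chain is built from a large number of subunits, and the mRNAs examined here are those made in the nucleus. Members were chosen by name, as genes whose symbol consists of Ndufa, Ndufb, Ndufc, Ndufs or Ndufv followed by a number. There were 36 such genes among the 13120 genes with reads, and they held 17570 of the 1926118 reads kept on nuclear mRNAs. All 36 had at least 30 reads in total. The pattern leaves out Ndufab1, Ndufb1-ps, Ndufa4l2 and the Ndufaf assembly factors. It takes in Ndufa4, whose product is now assigned to complex IV.

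Complex I takes electrons from NADH and hands them to ubiquinone, and it pumps protons across the inner mitochondrial membrane as it does so. Its catalytic centre consists of core subunits, some made from nuclear genes and some from mitochondrial DNA, which are surrounded by nuclear-encoded accessory subunits in a peripheral arm and a membrane arm. A poly(A) tail is added to the 3′ end of each mRNA in the nucleus and is shortened in the cytoplasm, where its length bears on how stably the mRNA is kept and how it is translated. The mTOR kinase is known to favour the translation of many nuclear-encoded mitochondrial mRNAs.

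Tail lengths were read from single molecules by nanopore direct RNA sequencing in P19 cells, a mouse embryonal carcinoma line of WT genotype, kept undifferentiated in serum-containing medium that was renewed every 24 h. Cells received 10 µM MHY1485 (MHY), a compound used to activate mTOR, or DMSO, its solvent, as control, for 24 h or 48 h, and each of the 4 groups had 2 libraries. Libraries are named by the numbers in the deposited table, which are 21 and 23 at 24 h and 24 and 25 at 48 h. The study is of 1 cell line, and calls the libraries of a group biological replicates. How their cultures were kept apart is not given in the sources used here, so that p-values measure the spread between these libraries.

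Facts of the whole series bear on the values below. The sum of 10 embryonal carcinoma markers took 3643 to 4201 RPM (on the reads-per-million scale of nuclear mRNA reads) in each library, with all 10 detected, against 215 to 404 for 6 neuronal markers, of which Dcx was at 0. Lists of 5 mesenchymal and 4 endodermal markers reached at most 32.1 and 9.34 RPM. The MHY library 24 stood apart from the other 7 for mRNAs in general, with a mean tail of 101.4 nt on mRNAs outside complex I against 105.3 to 109.2 nt elsewhere. The main results at 48 h are therefore also given without it. A column of the deposited table headed sample is read here as the sequencing run. It holds 3 values at 24 h and 2 others at 48 h, so that time and run cannot be told apart. The paper describes 2 independent libraries for each time point.

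The tail of each read begins where the mRNA ends. A median of 91.4% of a member's reads on its main transcript ended within 10 nt of the commonest end, with a range of 48.8% (Ndufc1) to 99.0% (Ndufb10). On the main transcript of each member, the commonest end lay a median of 675 nt from the transcript's start, with a range of 342 to 2659 nt. In 21 of the 35 members whose main transcript had a reference sequence, it lay within 20 nt of the annotated end, against 63.2% of all 6221 transcripts with at least 30 reads. In 11 members it lay more than 100 nt before it, as it did in 32.5% of all transcripts. Ndufb2 reads ended 3922 nt early, and those of Ndufs4, Ndufv2 and Ndufc1 ended 855, 802 and 801 nt early. The 40 bases before the commonest end were searched on the mRNA's strand for the poly(A) signal AATAAA and its common variant ATTAAA. The signal was present in 24 of the 35 (68.6%) and the variant without it in 8 (22.9%), against 70.5% and 15.4% of all transcripts in windows of the same length. Ndufa2, Ndufa7 and Ndufs8 held neither, as did 14.1% of all. The median of mean tails was 102.0 nt for members with the signal, 98.5 nt for those with the variant and 101.8 nt for those with neither, and the ranges overlapped widely.

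The last 30 bases before the commonest read end are shown for the members on which the results turn, with the signal or its variant in capitals. They come from GENCODE vM21 transcripts on mm10, all lie in the last exon beyond the coding region, and are written 5′ to 3′ on the mRNA strand. Ndufa4 (chr6:11900372-11900401, minus strand), Ndufa12 (chr10:94220920-94220949, plus strand) and Ndufb8 (chr19:44550251-44550280, minus strand) are among the 5 members with most reads. Ndufa5 (chr6:24518666-24518695, minus strand), Ndufv2 (chr17:66079440-66079469, minus strand) and Ndufb8 have the shortest mean tails, while Ndufa4 and Ndufa10 (chr1:92439486-92439515, minus strand) are among those with the longest. Ndufv3 (chr17:31531297-31531326, plus strand) is the member called for read count at 48 h, a call that most alternatives did not keep.
Ndufa4: tacactgatgAATAAAtctctgaaacttga
Ndufa12: ccatgaacttgATTAAAattgtttgaccta
Ndufb8: taaccataataaaatccctAATAAAgctca
Ndufa5: taaatgtgcaATTAAAtgctctgtgatgct
Ndufv2: cactggacaAATAAAatatgaacttcccta
Ndufa10: gaagaAATAAAgccggctctgtagcccctc
Ndufv3: gcctgtgagAATAAAaggcagagtcacaaa
The signal began 20 nt before the end in Ndufa4, 21 nt in Ndufv2 and Ndufv3, and 25 nt in Ndufa10, and the variant 20 nt before it in Ndufa5 and 19 nt in Ndufa12. In Ndufb8 the signal began 11 nt before the end and a further copy stands upstream of it. Only Ndufb5, an accessory subunit of the membrane arm, had another end more than 100 nt away that took at least 10% of its main transcript's reads. Reads ending near position 744 (340 reads) had a mean tail of 97.7 nt and those near position 1073 (67 reads) one of 103.3 nt. The further end had the longer mean in 6 of 8 libraries, with a mean difference of 5.87 ± 14.3 nt (SD, n = 8, two-sided exact sign-flip permutation test, p = 0.273), smaller than its spread.

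As a set, complex I mRNAs carried tails about 4 nt shorter than the other nuclear mRNAs of the same library when reads were pooled, and 12.8 nt shorter when each gene was given equal weight. In DMSO at 24 h their mean tail was 103.7 nt (library 21) and 104.3 nt (library 23), against 108.0 nt and 109.2 nt for the other mRNAs. In MHY at 24 h it was 103.2 and 102.9 nt, against 107.8 and 107.9 nt. At 48 h it was 103.6 and 103.5 nt in DMSO (libraries 24 and 25), against 105.5 and 107.2 nt, and 95.8 and 102.6 nt in MHY, against 101.4 and 105.3 nt. Complex I lay below the other mRNAs in 8 of 8 libraries, by 1.87 to 5.60 nt. The mean difference was -4.08 ± 1.25 nt (SD, n = 8), larger than its spread, with p = 0.00781 in a two-sided exact sign-flip permutation test, the smallest p that 8 libraries allow.

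**Figure D1:**
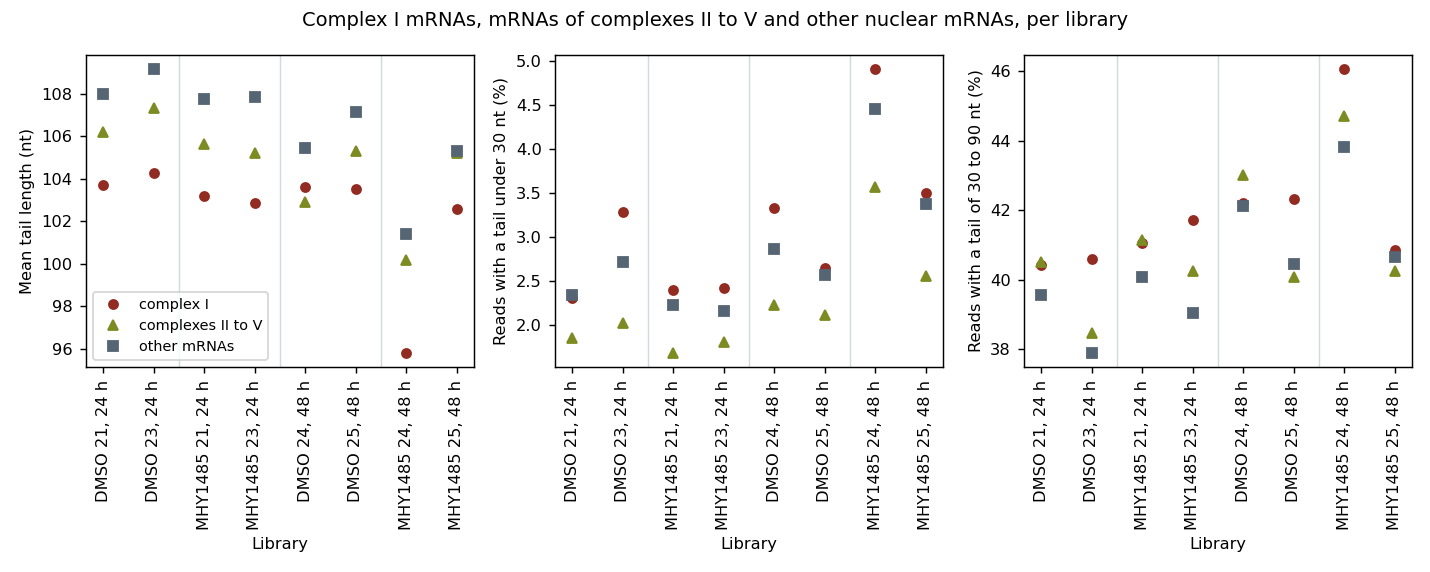
Mean tail length (nt), share of reads with a tail under 30 nt (%) and share with a tail of 30 to 90 nt (%) in each of the 8 libraries, for complex I mRNAs (circles), nuclear mRNAs of complexes II to V (triangles) and all other nuclear mRNAs (squares); the axes do not start at 0. Complex I lies below the other mRNAs in mean tail in all 8 libraries, and the MHY library 24 lies at 95.8 nt for complex I.

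The size and the sign of this difference depended on which mRNAs complex I was set against. Complex I mRNAs are short, and short mRNAs had shorter tails in general: the median gene outside complex I had a mean tail of 103.1 nt where reads ended within 1000 nt of the transcript start, 108.1 nt at 1000 to 2000 nt and 118.1 nt beyond. Of the 36 members, 29 were in the first class, with a median of 100.7 nt, and 17 of these 29 lay below the class median. When all reads of the 742 other genes in that class were pooled, tails of these 29 members were longer by 1.98 ± 1.42 nt, in 8 of 8 libraries (two-sided exact sign-flip permutation test, n = 8, p = 0.00781). Ribosomal protein mRNAs made up 66.1% of those reads. Without them the difference was -2.35 nt, below 0 in 7 of 8 libraries (p = 0.0156, same permutation test), and with each gene given equal weight the difference was -3.30 nt, below 0 in 8 of 8 (p = 0.00781, same permutation test). Against the nuclear-encoded subunits of complexes II to V, complex I tails were shorter in 7 of 8 libraries, with a mean difference of -2.31 ± 1.42 nt (two-sided exact sign-flip permutation test, n = 8, p = 0.0156). The comparisons by length and with complexes II to V were chosen after the values had been seen.

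The shape of the tail distribution was broad. Over all libraries, complex I reads had a median tail of 96.2 nt, with 5% under 34.4 nt and 5% above 192.1 nt, against a median of 98.7 nt and limits of 35.5 and 204.3 nt for the other mRNAs. The tallest bin of the pooled reads was 70 to 80 nt for both. Tails of 30 to 90 nt took 40.4% to 46.1% of complex I reads in a library, and were more frequent than among the other mRNAs in 8 of 8 libraries, by 1.46 ± 1.06 percentage points (two-sided exact sign-flip permutation test, n = 8, p = 0.00781). Here too the sign depended on the comparison. Against the other mRNAs ending within 1000 nt, the 29 members of that class differed by -2.89 ± 1.58 points, below 0 in 8 of 8 libraries (p = 0.00781, same permutation test). Ribosomal protein mRNAs made up 66.1% of the reads compared with, and the share of 30 to 90 nt was not compared without them. Against complexes II to V the difference was 0.853 ± 1.13 points, above 0 in 5 of 8 (p = 0.0938, same permutation test). Tails under 30 nt took 2.31% to 4.92% and exceeded the share in other mRNAs in 7 of 8 libraries, by 0.260 ± 0.216 percentage points (p = 0.0156, same permutation test). They exceeded the share in complexes II to V in 8 of 8, by 0.872 ± 0.343 points (p = 0.00781, same permutation test).

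**Figure D2:**
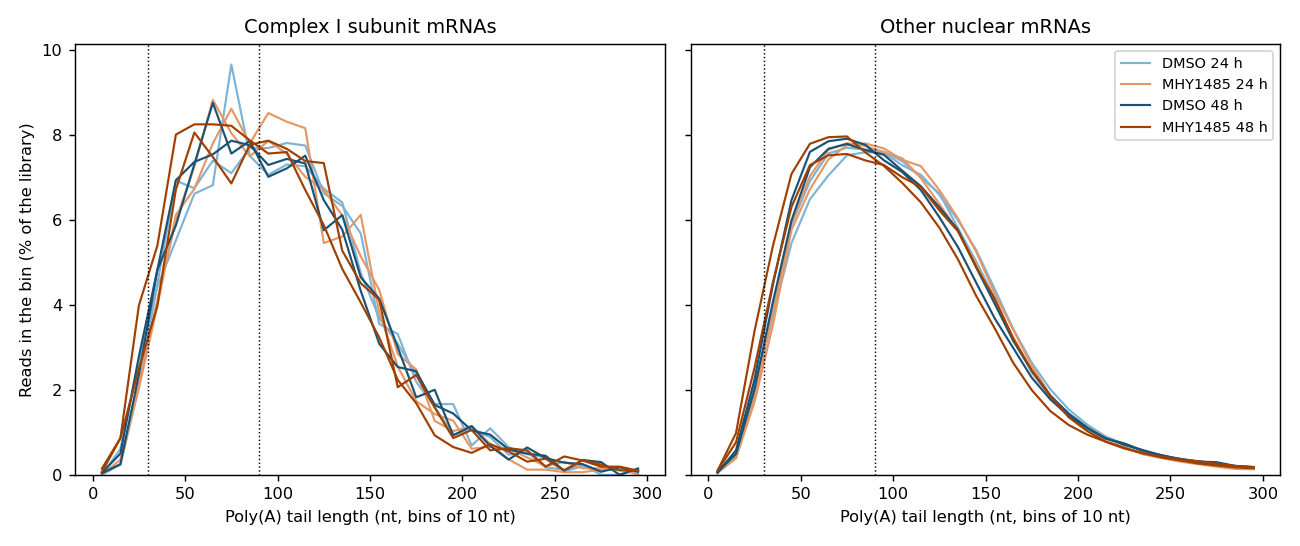
Share of a library's reads (%) in each 10-nt bin of tail length, up to 300 nt, for complex I subunit mRNAs (left) and all other nuclear mRNAs (right), with 1 line per library and dotted lines at 30 and 90 nt. In pooled reads both sets have their tallest bin at 70 to 80 nt, but in single libraries the tallest complex I bin starts anywhere from 50 to 100 nt, and the complex I lines are more ragged because a library holds only 1654 to 2909 such reads.

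The complex I subunits made inside mitochondria carried a different kind of tail. Reads on the 7 mt-Nd mRNAs, which encode the core of the membrane arm, had a mean tail of 50.2 to 52.9 nt in every library. Between 90.4% and 94.6% of them fell in the class of 30 to 90 nt.

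Single members ranged from 88.6 nt (Ndufa5) to 122.4 nt (Ndufs1) in the mean over libraries, with an SD between members of 6.78 nt. Among the 5842 genes with at least 30 reads, 34 of the 36 members lay below the median gene and 23 among the lowest 25%, and the median member stood at the 15.9th percentile of mean tail. None lay among the highest 25%. The members were at the same time abundant: all 36 lay above the median gene in reads, the median member at the 90.8th percentile. A member had 3 to 177 reads in a library, with a median of 55, and the standard error of its mean tail within a library was 3.54 to 25.4 nt (median 6.58 nt). The order of the members was only loosely shared between libraries, with Spearman correlations across the 36 genes of 0.0891 to 0.600 over pairs of libraries (median 0.397), which describes these genes and carries no test.

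**Figure D3:**
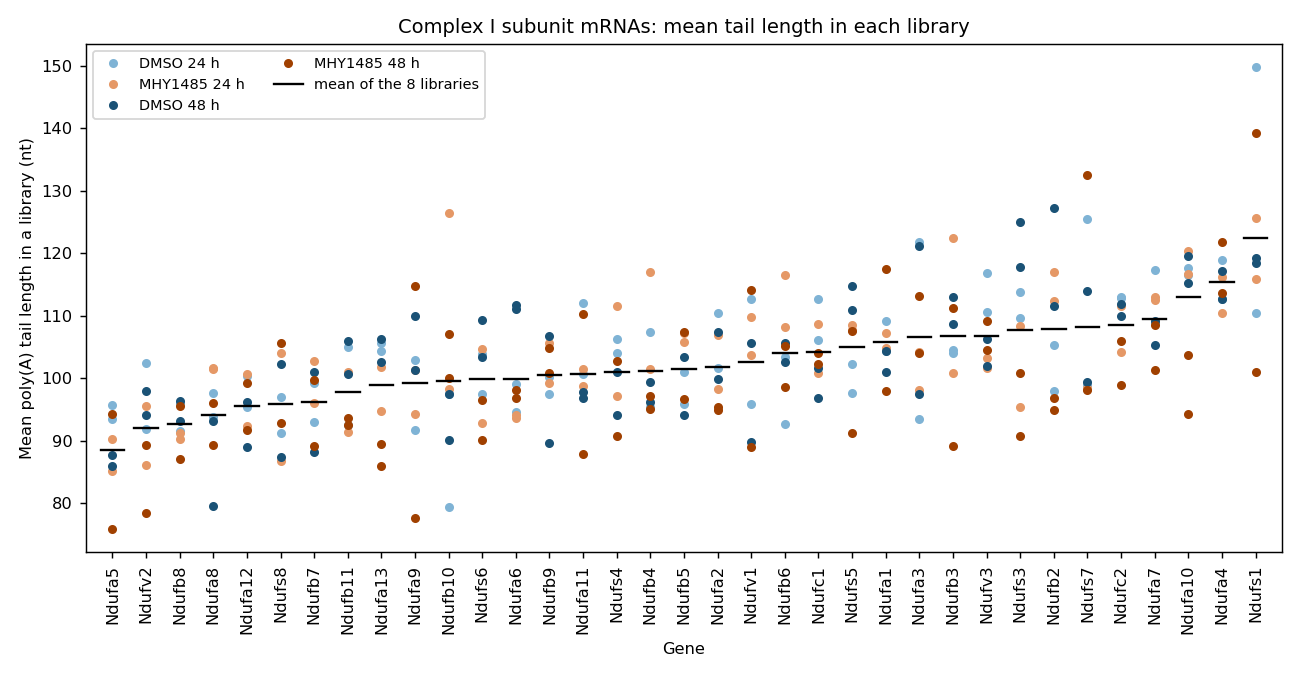
Mean poly(A) tail length (nt) of 35 complex I genes in each of the 8 libraries (points, coloured by group) and the mean over libraries (bars), genes ordered by that mean; the axis does not start at 0. Ndufa5 is lowest at 88.6 nt and Ndufs1 highest at 122.4 nt, and the points of neighbouring genes overlap.

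Core subunits covered nearly the whole range. Ndufv2, an iron-sulfur subunit beside the flavin site, had the shortest mean tail of them, 92.0 ± 7.4 nt (SD over 8 libraries). In DMSO it measured 91.9, 102.4, 97.96 and 94.2 nt (libraries 21, 23, 24 and 25), and in MHY 86.2, 95.6, 78.5 and 89.4 nt. It lay below the mean of all complex I reads in 8 of 8 libraries. Ndufs1, the large iron-sulfur subunit that passes electrons from the flavin site, had the longest at 122.4 ± 15.6 nt. It measured 110.5, 149.8, 118.4 and 119.2 nt in DMSO and 125.6, 115.9, 101.0 and 139.2 nt in MHY, in the same order of libraries. Each of these values rested on 9 to 29 reads, and Ndufs1 failed the filter of 10 reads in every library. Between these stood Ndufs8 (95.9 nt), Ndufv1 (102.5 nt), Ndufs3 (107.7 nt) and Ndufs7 (108.1 nt). Ndufv1 binds NADH and the flavin, Ndufs7 lies at the quinone site, Ndufs8 carries iron-sulfur clusters and Ndufs3 belongs to the quinone module. Neighbours in this order differed by less than their SDs over libraries, which were 7.4 to 14.0 nt.

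Accessory subunits of the peripheral arm had mean tails of 88.6 to 109.5 nt. Ndufa5, of the quinone module, was the shortest of all members. It measured 95.8, 93.4, 86.0 and 87.7 nt in DMSO (libraries 21, 23, 24 and 25) and 90.3, 85.2, 75.9 and 94.3 nt in MHY, on 22 to 51 reads each. All 8 values lay below the mean of all complex I reads in their libraries. Ndufa12, which sits on the peripheral arm, also lay below it in 8 of 8 libraries, with 95.6 ± 4.4 nt (SD) on 728 reads. Ndufa7 was the longest of this group, at 109.5 ± 4.9 nt, and had more reads than any member but Ndufa4. Ndufa2, which has a thioredoxin-like fold, came next in abundance (823 reads) and had a mean tail of 101.8 ± 5.8 nt.

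Accessory subunits of the membrane arm had mean tails of 92.6 to 113.0 nt. Ndufb8 was the shortest and most even of them. Its 8 values ran from 87.1 to 96.3 nt on 73 to 132 reads each, all below the mean of all complex I reads in their libraries, and the SD was 3.2 nt. Ndufa8 (94.1 nt) and Ndufb7 (96.1 nt) lay below it in 8 of 8 libraries too. Ndufa10, a subunit with a nucleoside kinase-like fold, was the longest at 113.0 ± 9.2 nt. Ndufc2 (108.5 ± 5.0 nt) lay above the mean of all complex I reads in 8 of 8 libraries. The values for Ndufb10 rested on only 3 to 29 reads a library.

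Ndufa4, the subunit assigned to complex IV, had most reads (1102) and one of the longest tails. It measured 112.6, 118.9, 112.6 and 117.1 nt in DMSO (libraries 21, 23, 24 and 25) and 116.2, 110.4, 113.6 and 121.7 nt in MHY. All 8 values lay above the mean of all complex I reads in their libraries. Without Ndufa4 the set lay 4.94 nt below the other mRNAs. Of the related genes that the pattern leaves out, Ndufab1, the mitochondrial acyl carrier protein, had a mean tail of 99.8 nt on 608 reads and Ndufb1-ps one of 99.1 nt on 594 reads.

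Very short tails were unevenly spread over the members. Tails under 30 nt made up 10.9% of Ndufa5 reads (30 of 276, 95% Wilson interval 7.72% to 15.1%). They made up 0.714% of Ndufa10 reads (2 of 280, 0.196% to 2.57%) and 0.817% of Ndufa4 reads (9 of 1102, 0.430% to 1.54%). Ndufa5 exceeded the share of the whole set in 8 of 8 libraries, and Ndufa4 and Ndufa10 lay below it in 8 of 8. Ndufa10 had 0 such reads in 7 libraries and Ndufa4 had 0 in 4, so that these low values lie near the floor. Ndufv2 (7.56%) and Ndufs7 (6.05%) followed Ndufa5. The share was above 5% in 8 members, among them the core subunits Ndufv2, Ndufs3, Ndufs7 and Ndufs8, and at or below 2% in 8. The core subunits Ndufs1 (2.53%) and Ndufv1 (2.68%) lay lower. Other genes were spread in a similar way: the quartiles of the 5806 other genes with at least 30 reads were 1.47% and 4.88%. Intervals cover counting error only, since reads carry no molecular identifiers.

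**Figure D4:**
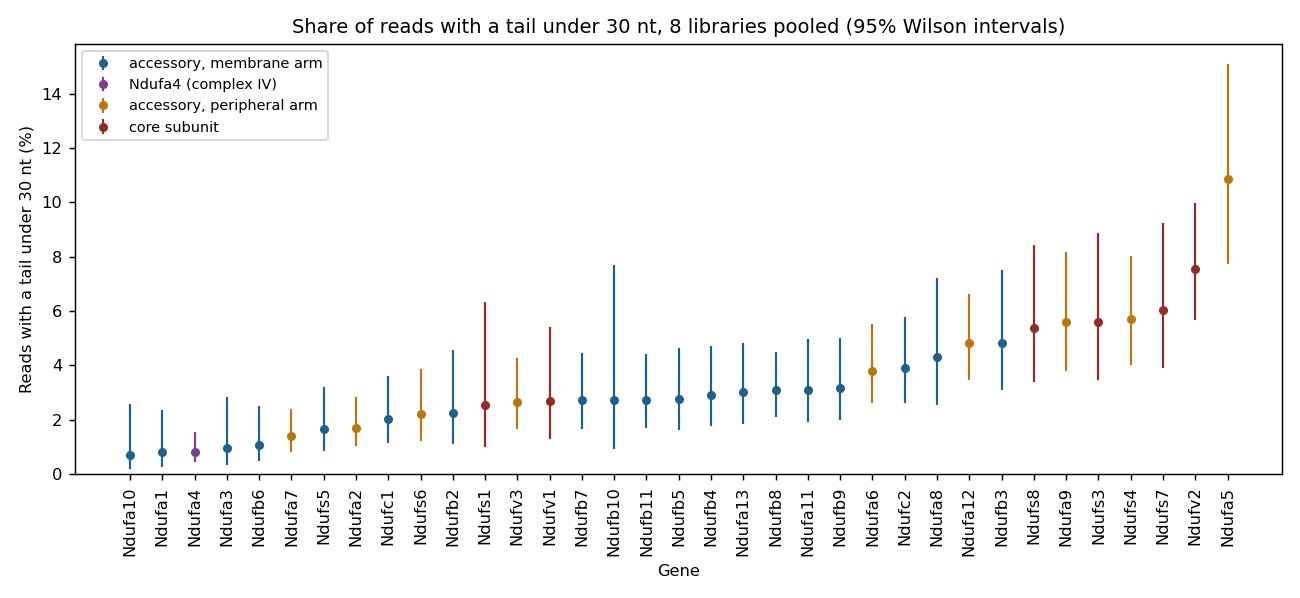
Share of reads with a tail under 30 nt (%) for 35 complex I genes, reads of the 8 libraries pooled, with 95% Wilson intervals that cover counting error only; colours give the place of the subunit. Ndufa5 stands highest at 10.9%, and Ndufa10, Ndufa1 and Ndufa4 lowest, at under 1%.

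Grouped by place in the enzyme, the pooled core reads exceeded those of membrane-arm accessory subunits in this share in 7 of 8 libraries, by 2.63 ± 1.95 percentage points (SD, n = 8). In DMSO the core share was 4.63%, 4.55%, 6.58% and 4.31% (libraries 21, 23, 24 and 25), against 1.95%, 2.87%, 2.58% and 1.95% for the membrane arm. In MHY it was 5.45%, 1.78%, 9.31% and 5.28%, against 1.97%, 2.55%, 3.43% and 3.51%. Only the MHY library 23 had the core lower. The two-sided exact sign-flip permutation test gave p = 0.0156, or 0.0625 after Benjamini-Hochberg adjustment over the 6 comparisons made between places, which were chosen after the values had been seen. None of the 6 passed. Mean tails of core and membrane-arm reads differed by only -0.219 ± 5.29 nt (adjusted p = 0.977, same permutation test).

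Whether activating mTOR changed the tails of these mRNAs was asked by setting MHY against DMSO at each time. At 24 h the set mean tail was 104.0 ± 0.4 nt in DMSO and 103.0 ± 0.2 nt in MHY (SD, n = 2), a difference of -0.974 nt with no overlap between the groups. The other mRNAs differed by -0.790 nt. Places in the enzyme went in opposite directions at 24 h. The difference was -4.71 nt for core, -2.94 nt for peripheral-arm and 1.68 nt for membrane-arm reads, each without overlap (exact permutation test, p = 0.33 for each). For Ndufa4 it was -2.41 nt, with overlap. At 48 h the set mean tail was 103.6 ± 0.1 nt in DMSO and 99.2 ± 4.8 nt in MHY, a difference of -4.37 nt, against -2.96 nt in the other mRNAs. The groups again did not overlap, but MHY library 24 set the size: without it the difference was -0.986 nt. The two-sided exact permutation test gave p = 0.33 at both times, the smallest p that 2 against 2 libraries allow, so that this design cannot pass 0.05. Within single runs the difference lay between -1.02 and -0.902 nt in the 3 runs of 24 h and was -4.14 or -4.52 nt in those of 48 h. The runs divide the reads of the same libraries, so that they are not further replicates. The change in complex I beyond that in the other mRNAs was -0.185 nt at 24 h and -1.41 nt at 48 h (exact permutation test, p = 0.667 for each), and 0.0225 nt at 48 h without MHY library 24.

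The share of 30 to 90 nt at 24 h was 40.4% and 40.6% in DMSO and 41.1% and 41.7% in MHY, a difference of 0.884 points without overlap (exact permutation test, n = 2, p = 0.33). The other mRNAs differed by 0.845 points. By place the difference was 4.74 points for core, 2.34 for peripheral-arm and -1.94 for membrane-arm reads, and 6.25 for Ndufa4, each without overlap. Within runs the difference of the set was 0.728, -0.134 and 2.54 points, so that run 2 went the other way. The share under 30 nt at 24 h was 2.31% and 3.29% in DMSO and 2.40% and 2.42% in MHY. The groups overlapped (exact permutation test, n = 2, p = 1.0), and the difference of -0.390 points became 0.0999 points without DMSO library 23. At 48 h it was 3.33% and 2.65% in DMSO (libraries 24 and 25; 95% Wilson intervals 2.63% to 4.21% and 2.11% to 3.31%), and 4.92% and 3.501% in MHY (4.19% to 5.76% and 2.79% to 4.38%). The groups did not overlap, with a difference of 1.22 points (exact permutation test, n = 2, p = 0.33), or 0.512 points without MHY library 24. The other mRNAs differed by 1.201 points, or 0.660 points without MHY library 24. That of 30 to 90 nt was 42.2% and 42.3% in DMSO at 48 h, and 46.1% and 40.9% in MHY, on either side of them. Its mean difference of 1.204 points (exact permutation test, n = 2, p = 1.0) became -1.40 points without MHY library 24.

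Gene by gene, limma called no member for mean tail at either time. At 24 h, 0 of the 34 members with at least 10 reads in every library passed an adjusted p of 0.05, as for all 1949 genes tested (0.0%). At 48 h it was again 0 of 34, against 15 of all genes (0.77%). The count over all genes was 1 without MHY library 24, 0 without DMSO library 25 and 53 without MHY library 25, with 0 members called each time. At an unadjusted p under 0.05 there were 0 members at 24 h and 6 at 48 h, where 4.16% and 9.34% of all genes passed. The median member changed by -1.43 nt at 24 h and -2.67 nt at 48 h, beside -0.42 nt and -3.25 nt for all genes. At 24 h the median member turned to 0.477 nt without DMSO library 21, beside -0.909 nt for all genes, and was -0.582 nt without MHY library 23, beside -1.13 nt. At 48 h it was -5.46 nt without DMSO library 25, beside -2.05 nt for all genes, and -6.72 nt without MHY library 25, beside -4.62 nt. Without the MHY library 24 the median at 48 h was 0.669 nt, beside -1.07 nt for all genes, with 3 members at an unadjusted p under 0.05 (4.77% of all genes). The MHY pair lay wholly below the DMSO pair for 8 of 34 members at 24 h, where 18.0% of all genes did, and for 11 of 34 at 48 h, where 26.1% did. It lay wholly above for 5 members at 24 h (14.7% of all genes) and for 1 at 48 h (10.8% of all genes), which is Ndufc1. The standard error of a member's change was 4.56 to 10.3 nt at 48 h (median 6.54 nt), larger than the change of the set as a whole. The effects at 48 h and 24 h differed for 0 members in limma, against 0.0% of all genes, with 1 member, Ndufb2, at an unadjusted p under 0.05 (4.98% of all genes).

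**Figure D5:**
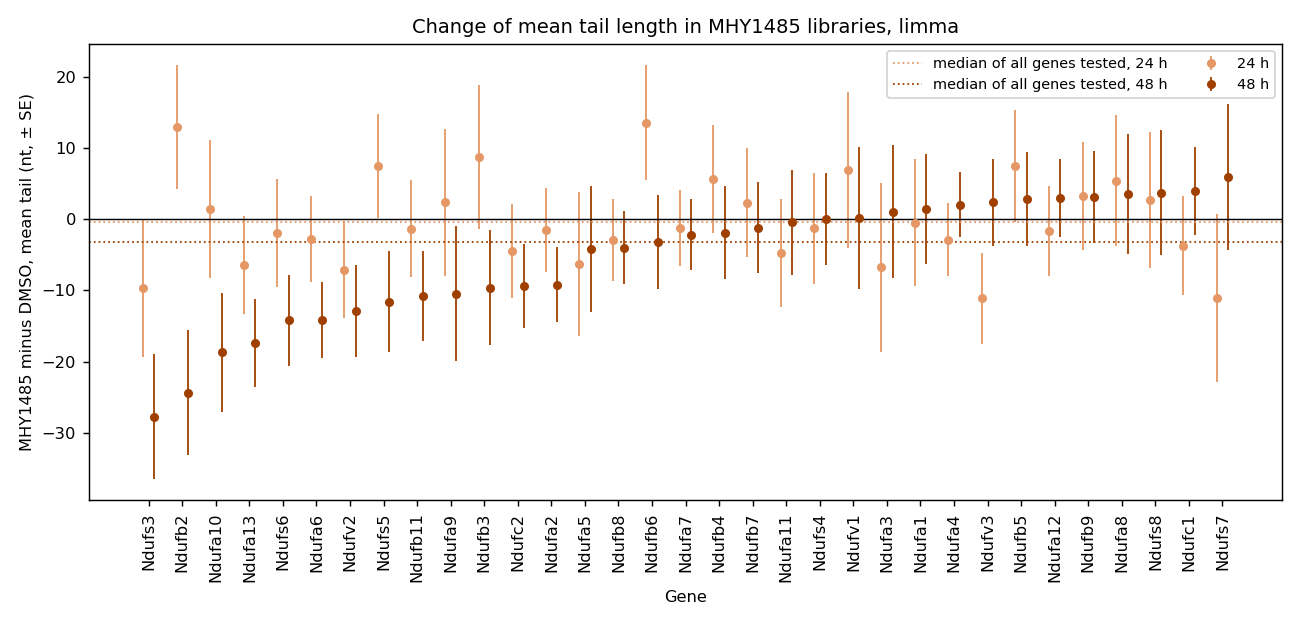
Change of mean tail length in MHY against DMSO (nt, limma estimate ± SE) for members tested, at 24 h (light) and 48 h (dark), ordered by the change at 48 h; dotted lines give the median of all genes tested. At 48 h the changes run from -27.7 nt (Ndufs3) to 5.94 nt (Ndufs7), and no member passed the adjusted threshold at either time.

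The most negative estimates at 48 h were those of Ndufs3, Ndufb2 and Ndufa10. Ndufs3, of the quinone module, measured 117.7 and 125.0 nt in DMSO (libraries 24 and 25) and 90.7 and 100.8 nt in MHY, on 20 to 55 reads each. The groups did not overlap, and the estimate was -27.7 nt (SE 8.77, limma adjusted p = 0.215). Reads assigned to the main Ndufs3 transcript had 133.9 and 143.1 nt in DMSO and 88.0 and 89.9 nt in MHY, while those assigned to another had 101.5 and 101.2 nt against 96.2 and 108.5 nt, on 10 to 37 reads each. No Ndufs3 read reached a mapping quality of 10, so the assignment between these transcripts is uncertain. Ndufb2, an accessory subunit of the membrane arm, measured 127.2 and 111.6 nt against 94.9 and 96.8 nt, an estimate of -24.3 nt (SE 8.77, limma adjusted p = 0.325). At 24 h its order was the opposite, with 97.9 and 105.3 nt in DMSO and 112.3 and 117.0 nt in MHY. Ndufa10 measured 119.5 and 115.2 nt against 94.2 and 103.7 nt, an estimate of -18.7 nt (SE 8.34, limma adjusted p = 0.472). None of the 3 passed, and the largest positive estimates at 48 h, for Ndufs7 (5.94 nt), Ndufc1 (3.91 nt) and Ndufs8 (3.74 nt), were smaller than their standard errors. Without MHY library 24 the estimates were -22.0 nt for Ndufs3, -23.2 nt for Ndufb2 and -13.4 nt for Ndufa10, and 24.9 nt for Ndufs7, 3.07 nt for Ndufc1 and 12.3 nt for Ndufs8. With any 1 library left out they ran from -32.0 to -22.0 nt for Ndufs3, -31.5 to -15.9 nt for Ndufb2 and -22.9 to -13.4 nt for Ndufa10. The range was 1.61 to 6.39 nt for Ndufc1, and the estimates for Ndufs7 and Ndufs8 changed sign.

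At 24 h the most negative estimates were -11.1 nt for Ndufv3 (SE 6.39), -11.0 nt for Ndufs7 (SE 11.8) and -9.64 nt for Ndufs3 (SE 9.73). With 1 library left out, the estimate for Ndufs7 ran from -27.2 nt (without DMSO 23) to -0.602 nt (without DMSO 21) and that for Ndufs3 from -16.0 nt (without MHY 23) to -3.04 nt (without MHY 21). The most positive were 13.5 nt for Ndufb6 (SE 8.10), 12.9 nt for Ndufb2 (SE 8.75) and 8.72 nt for Ndufb3 (SE 10.1). All 3 are in the membrane arm, as are 19 of the 36 members. With 1 library left out the estimates ran from 8.98 to 19.5 nt for Ndufb6, lowest without DMSO 21, and from -3.36 to 18.3 nt for Ndufb3, which turned sign without MHY 21. Ndufv3 measured 116.9 and 110.6 nt in DMSO and 101.5 and 103.2 nt in MHY at 24 h, without overlap, but 101.9 and 106.2 nt against 104.5 and 109.1 nt at 48 h. The limma adjusted p of each of these was 0.999 at 24 h.

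Tail classes gave the same count. No member was called by limma for the share of 30 to 90 nt, against 0.0% of genes at 24 h and 0.257% at 48 h, with 2 members at an unadjusted p under 0.05 at each time (4.87% and 6.16% of all genes). None was called for the share under 30 nt, against 0.0% at 24 h and 0.359% at 48 h, with 4 and 2 members at an unadjusted p under 0.05 (5.64% and 10.6% of all genes). Without MHY library 24 neither class had a call at 48 h among all genes, with 1 and 5 members at an unadjusted p under 0.05 (4.67% and 5.64% of all genes). In neither class did the effects at 48 h and 24 h differ for a member (0.0% of genes in both), with 1 and 4 members at an unadjusted p under 0.05 (3.54% and 8.52% of all genes). The median difference in log2 odds of a tail under 30 nt over members was 0.56 at 48 h, beside 0.41 for all genes. Of the members, 26 of 34 had an estimate above 0, and as the median of all genes was above 0, most genes did too. The median over members was 0.46 without MHY library 24, beside 0.30 for all genes, and 0.32 without DMSO library 25, beside 0.25 for all genes. For tails under 20 nt, a bound chosen after the data were seen, the median was 0.07 at 48 h, beside 0.19 for all genes, so that the order turned. Ndufb7, an accessory subunit of the membrane arm, was singled out after its values were seen. At 48 h, 1 of 78 and 0 of 79 of its reads had a tail under 30 nt in DMSO, and 7 of 102 and 4 of 67 in MHY. Its log2 odds differed by 2.78 (SE 0.61, limma adjusted p = 0.127), which passed, at 3.58 with an adjusted p of 0.0193, when only reads of mapping quality 10 or more were kept. That setting tested 31 members and 1477 genes, of which 12 (0.812%) were called. Without MHY library 24 it was 2.69 (limma adjusted p = 0.789).

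The amount of complex I mRNA was measured as its share of nuclear mRNA reads. In bulk libraries fewer cells of a type and less RNA per cell cannot be told apart. In DMSO at 24 h the set took 8889 ± 60.8 RPM and in MHY 8995 ± 393 (SD, n = 2), a log2 ratio of 0.02 (exact permutation test, p = 1.0). At 48 h it took 9121 ± 404 in DMSO and 9538 ± 284 in MHY, a log2 ratio of 0.06 (exact permutation test, p = 0.667), or 0.09 without MHY library 24. The groups overlapped at both times, and the sign of both differences turned when size factors took the place of total reads (-0.013 and -0.040).

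Among members, limma called 1 of 36 for read count at 48 h, downwards, and 0 of 36 at 24 h, where 1.58% and 0.0729% of the 4116 genes tested were called. There were 4 and 2 members at an unadjusted p under 0.05, where 12.4% and 4.3% of all genes passed. The 65 calls over all genes at 48 h became 16 without MHY library 24, 17 without DMSO library 25 and 140 without MHY library 25. By share of reads, the MHY pair lay wholly above the DMSO pair for 9 members at 48 h (25.2% of all genes) and for 6 at 24 h (17.8%), and below for 3 at 48 h (14.4%) and 7 at 24 h (16.6%). No member's change differed between 48 h and 24 h, against 0.34% of genes, with 0 at an unadjusted p under 0.05 (6.58% of all genes).

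The member called was Ndufv3, a small accessory subunit of the flavoprotein part of the peripheral arm. It had 370 and 335 RPM in DMSO at 48 h (79 and 106 reads, libraries 24 and 25) and 212 and 280 in MHY (66 and 60 reads). At 24 h it had 398 and 363 in DMSO (libraries 21 and 23) and 298 and 269 in MHY. All 4 MHY libraries lay below all 4 DMSO libraries. The log2 change was -0.66 at 48 h (SE 0.19, limma adjusted p = 0.0466) and -0.41 at 24 h (SE 0.20, limma adjusted p = 0.955), and these differed by -0.25 (SE 0.28, limma adjusted p = 0.944). The call at 48 h was lost in 12 of 14 alternatives. It was lost without each of the libraries but MHY 25 (limma adjusted p between 0.00822 and 0.830 over the libraries left out), and without MHY library 24 the change was -0.36. Most reads (540 of 602) were of the short transcript of 493 nt, with a mean tail of 108.3 nt. The long transcript of 1582 nt took 59 reads with a mean tail of 96.5 nt. The short transcript had 67 and 95 reads in DMSO at 48 h and 57 and 55 in MHY, and the long one 10 and 11 against 9 and 5.

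The assembly factors, which help to build complex I without staying in it, were too scarce for the tail fits: 0 of 16 listed had 10 reads in every library. Of these, 9 were tested for read count, and limma called 0 at 24 h and 0 at 48 h.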

How the data were processed

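The samples, the nanopore direct RNA-seq of P19 cells in DMSO or MHY, were grouped by their labels. The authors used Guppy for base calling, minimap2 (2.20) for alignment to GENCODE vM17 transcripts of mm10, Nanopolish for tail lengths in nt and Deeplexicon for barcodes. Mapping quality was deposited as a score from minimap2, and barcode confidence was deposited as a fraction. The deposited table holds reads of every quality tag.

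Of 2439710 alignments, 2027638 (83.1%) carried the tag PASS, as did 87.3% of complex I alignments. PASS alignments of class mRNA outside pseudogenes were kept once per read and transcript (1993073, of which 66955 mitochondrial were set aside). Libraries held 178369 to 316546 nuclear mRNA reads. Members and lists were chosen with earlier results of these data known. Named genes were those called, the 5 with most reads, the 3 longest and shortest tails, the 3 largest rises and falls of mean tail at each time, and the core subunits. Other members named, among them Ndufa8, Ndufb5, Ndufb7, Ndufb10 and Ndufc2, were chosen after their values were seen. For 1 member, kept in all counts and set values, values of its own are not reported here.

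Values of the set were compared by exact permutation of libraries, or of signs of within-library differences (SciPy 1.17.1). Genes were fitted with limma 3.58.1 (R 4.3.3) over all 8 libraries: mean tails and log2 odds of tail classes (0.5 read added to each side), weighted by reads, for genes with at least 10 reads in each library, and read counts with voom and median-of-ratios size factors, for genes with at least 10 reads in 2 libraries. The threshold was a Benjamini-Hochberg adjusted p under 0.05. Scripts were tested on simulated data. Low mapping quality marks reads that align as well to another transcript, and few reads of Ndufs3 (0.0%), Ndufs7 (1.91%) and Ndufa12 (4.26%) reached 10. No transcript of another gene held the last 100 bases before the read end of Ndufs7, Ndufa12 or any other member with a sequence. Transcripts within these genes are uncertain. The search covered these bases only and cannot exclude alignment to similar genes. Ndufb2 shared them with 0 other transcripts, yet only 60.5% of its reads reached 10.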

Additional observations from a re-analysis of the deposited data

How the results depend on the processing

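Tests of 2 against 2 libraries could not pass at any setting, so only size and sign can be compared there. The set lay below the other mRNAs with medians (-2.34 nt), equal weight per gene (-12.8 nt), other read filters, or any 1 library left out (-4.39 to -3.86 nt). Among mRNAs ending within 1000 nt, chosen after the data were seen, the difference was 1.98 nt, and without ribosomal proteins -2.35 nt.

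With 1 library left out, the set changed in mean tail by -1.27 to -0.683 nt at 24 h and -7.75 to -0.986 nt at 48 h. The share of 30 to 90 nt changed by 0.551 to 1.22 points at 24 h and -1.40 to 3.80 points at 48 h, negative without MHY library 24. The share under 30 nt changed by -0.880 to 0.0999 points at 24 h, positive without DMSO library 23, and by 0.512 to 1.93 points at 48 h. The log2 read share ranged from -0.028 to 0.061 at 24 h, negative without MHY library 23, and from 0.02 to 0.11 at 48 h. With size factors it was -0.013 at 24 h and -0.040 at 48 h. Run 2 alone, added after the data were seen, gave -0.134 points for 30 to 90 nt, 0.941 points under 30 nt and -0.027 for the log2 read share at 24 h.

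Leaving out any 1 library left 0 members called for tail measures and 0 to 1 for read count at 48 h. Ndufv3 was not called (0 members) with total reads, without a low-count filter, with the 4 libraries of 48 h alone, at mapping quality of at least 10 or with a replicate block. For the share under 30 nt, 1 of 31 members and 0.812% of genes were called at mapping quality of at least 10. Among the 12 estimates of mean tail named as the largest, those that changed sign with 1 library left out were Ndufb3 at 24 h (-3.36 to 18.3 nt), and Ndufs8 (-5.20 to 12.3 nt, also -0.405 nt) and Ndufs7 (-9.52 to 24.9 nt, also -0.507 nt) at 48 h. Causes were not tested.

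Same-numbered libraries showed little shared deviation across 1949 genes (correlations 0.0186 and 0.0180 at 24 h, 0.139 and 0.0466 at 48 h, for reads and mean tail), so the numbers were not taken as pairs. With a replicate block the change of Ndufv3 was -0.62 (limma adjusted p = 0.0558). In this balanced design a replicate block cannot change the size of the set differences. Members had a median of 55 reads per library, which limits the precision of their values.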
